A study of Mus musculus with 9 samples.

Results

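Death receptor signalling was followed through 8 genes of the 54532 in the deposited table, chosen by name: the receptors Fas, Tnfrsf10b and Tnfrsf1a, the adaptor Fadd, the kinase Ripk1, the caspase-8 inhibitor Cflar, the initiator caspase Casp8, and Map3k5, which encodes ASK1. They were read in 9 RNA-seq libraries of primary hepatocytes from C57BL/6 mice, 3 libraries in each of 3 groups. All mice carried loxP-flanked COX-2 alleles. The group called WT was COX-2fl/fl without Cre, and COX-2 CKO was COX-2fl/fl with Alb-Cre, in which the albumin promoter drives Cre. Per the labels, cells were kept in 1% FBS for 2 hours and then given DMSO (WT DMSO) or 6 μmol/L tunicamycin (WT Tu and CKO Tu) for 24 hours. Ages were not given, and knockout cells with vehicle were not analysed here.

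Death receptors are surface proteins of the TNF receptor family with a death domain inside the cell. On ligand binding, Fas and the TRAIL receptor (Tnfrsf10b) recruit the adaptor FADD, which gathers procaspase-8 so that it cuts and activates itself, and c-FLIP, the product of Cflar, competes for that place. TNF receptor 1 (Tnfrsf1a) instead first builds a complex around RIPK1 that can signal survival or death. ASK1 is a stress kinase upstream of JNK and p38, which the ER stress sensor IRE1 can engage through TRAF2. Hepatocytes are known for their sensitivity to Fas, and in human cells the ER stress factor CHOP is known to raise TRAIL receptor 2.

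The labels were checked first. Each library held 14897358 to 16001484 fragments. Ptgs2, the gene for COX-2, had 21 fragments over the WT DMSO group, 18 in WT Tu and 4 in CKO Tu, so it was close to undetected in the WT libraries too. Hspa5, the ER chaperone BiP, rose by 3.20 ± 0.07 (SE) on the log2 scale in WT Tu (limma adjusted p = 1.8e-08). The mice are labelled male, yet Xist reached 20659 to 33657 fragments in every WT library but no more than 3 in any CKO Tu library. Summed over 4 genes of the Y chromosome (Kdm5d, Uty, Ddx3y and Eif2s3y), the 6 WT libraries had 0 fragments, whereas CKO Tu libraries had between 3486 and 3633. Genotype and this sex-linked difference therefore cannot be told apart in any comparison of CKO Tu with a WT group. That holds for every gene, the autosomal ones included. All 10 hepatocyte markers passed the filter, with sums of 16275 to 18242 FPKM over the WT libraries and 14625 to 15606 in CKO Tu. Between CKO Tu and WT Tu, 8 of them were higher, among them Tat (2.42 ± 0.15, SE; limma adjusted p = 7.8e-06) and Hnf4a (1.48 ± 0.09; limma adjusted p = 1e-05). Alb, which makes up most of the sum, was lower (-0.47 ± 0.07; limma adjusted p = 0.0011), and Apob was not called. With tunicamycin in WT cells 0 of the 10 rose, 3 fell and 7 were not called. The 3 were Hnf4a (-0.72 ± 0.09, SE; limma adjusted p = 0.00052), Apob (-0.34 ± 0.11; limma adjusted p = 0.047) and Ttr (-0.19 ± 0.06; limma adjusted p = 0.047). The part of these differences in the levels of the 8 genes was not tested. The first WT Tu replicate lay away from the remaining WT Tu libraries on the second principal component (-36.6 against -19.6 for both) and had the highest mitochondrial share of any library (6.87%).

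Sequence upstream of the start site is shown for 5 of the genes because of how they moved. Fas and Map3k5 were the pair higher in CKO Tu than in WT Tu, Fadd and Casp8 were the pair most alike across libraries (described last), and Cflar is the upstream neighbour of Casp8. All are RefSeq promoter sequences of GRCm38.p6 (mm10), on the strand of the gene, 5′ to 3′. They start 250 bases before the RefSeq start site and stop before the first base of an annotated GENCODE M21 exon. 7 of the 8 genes had an entry in that RefSeq table, and Tnfrsf10b did not. Capitals mark matches, on either strand, to TGANTCA (AP-1), TTCNNNGAA (STAT), GGGCGG (GC box), CCAAT and TATAAA.
Fas (chr19:34290409-34290658, + strand): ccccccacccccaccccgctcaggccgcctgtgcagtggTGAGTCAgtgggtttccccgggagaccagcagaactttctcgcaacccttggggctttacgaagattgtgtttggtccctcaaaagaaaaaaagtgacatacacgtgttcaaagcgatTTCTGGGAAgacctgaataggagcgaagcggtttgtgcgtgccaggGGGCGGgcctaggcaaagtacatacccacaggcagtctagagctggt
Map3k5 (chr10:19934276-19934471, + strand): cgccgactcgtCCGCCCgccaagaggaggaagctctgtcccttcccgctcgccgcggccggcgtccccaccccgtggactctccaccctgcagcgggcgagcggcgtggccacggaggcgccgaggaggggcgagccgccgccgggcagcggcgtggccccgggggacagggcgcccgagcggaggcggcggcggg
Fadd (chr7:144582464-144582691, - strand): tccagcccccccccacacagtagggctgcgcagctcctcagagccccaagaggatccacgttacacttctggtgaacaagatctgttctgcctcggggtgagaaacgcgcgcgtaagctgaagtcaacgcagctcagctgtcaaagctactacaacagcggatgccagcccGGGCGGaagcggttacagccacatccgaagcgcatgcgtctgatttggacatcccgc
Casp8 (chr1:58802252-58802501, + strand): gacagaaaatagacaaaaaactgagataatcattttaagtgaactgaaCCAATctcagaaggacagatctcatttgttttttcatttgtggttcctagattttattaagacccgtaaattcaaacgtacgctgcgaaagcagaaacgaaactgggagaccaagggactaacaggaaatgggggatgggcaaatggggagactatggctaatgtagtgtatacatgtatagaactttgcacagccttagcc
Cflar (chr1:58711241-58711490, + strand): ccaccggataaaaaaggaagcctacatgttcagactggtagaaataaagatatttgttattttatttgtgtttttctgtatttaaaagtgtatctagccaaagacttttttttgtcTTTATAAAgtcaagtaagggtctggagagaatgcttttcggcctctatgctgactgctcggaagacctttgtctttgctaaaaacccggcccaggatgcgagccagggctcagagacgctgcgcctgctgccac

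The motifs searched were unevenly present. In the full 250 bases, the UPR element TGACGTGG and the C/EBP-ATF composite site TGATGNAA, at which CHOP can bind, had no match in any of the 8 windows of the 7 matched genes, and neither had an NF-kB consensus. Of 32851 RefSeq windows of that length, 0.563%, 3.45% and 0.14% held them. Fas held an AP-1 match at position -211 from its start site and a STAT match at -93, which 6.75% and 7.02% of all windows hold. Tnfrsf1a and Ripk1, whose windows are not shown, also held STAT matches, which made 3 of the 8 windows. GC boxes stood in 5 of the 8 windows, those of Fas, Fadd, Ripk1 (both) and Map3k5, and in 32.7% of all windows. A CCAAT match stood only in that of Casp8 among the matched genes (33.8% of all windows), and a TATAAA match only in that of Cflar, where it reads on both strands (12.4%). CCACG, the second part of the ER stress element, matched in Fadd, Ripk1 and Map3k5 and in 28.3% of all windows. A match is a run of letters and not a measured site. The Casp8 window lies inside the GENCODE gene, in an intron, since RefSeq and GENCODE place the gene's first base differently.

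The 8 genes are autosomal and protein coding. The deposited coordinates (mm10) put Fas (ENSMUSG00000024778) on chromosome 19 from 34290659 to 34327770, Tnfrsf10b (ENSMUSG00000022074) on chromosome 14 from 69767472 to 69784411, and Tnfrsf1a (ENSMUSG00000030341) on chromosome 6 from 125349362 to 125362484. Fadd (ENSMUSG00000031077) lies on chromosome 7 from 144577318 to 144582463 and Ripk1 (ENSMUSG00000021408) on chromosome 13 from 34002363 to 34037147. Map3k5 (ENSMUSG00000071369) lies on chromosome 10 from 19934472 to 20142753. Cflar (ENSMUSG00000026031, 58711508 to 58758884) and Casp8 (ENSMUSG00000026029, 58795374 to 58847503) are neighbours on the + strand of chromosome 1, 36489 bases apart. GENCODE M21 gives the same ends for 7 of the 8, all but Fas. The values are gene totals, so isoforms such as long and short c-FLIP were not separated.

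Levels are given in FPKM, fragments scaled by gene length and library size. A comparison between genes in FPKM rests on the gene lengths used. Differences are given on the log2(FPKM + 1) scale with the standard error (SE) and adjusted p of a limma fit over all 11858 genes reaching 1 FPKM in 3 or more libraries, and a gene was called where that p was under 0.05. All 8 genes passed the filter. For genes at a few FPKM the added 1 shrinks the change, so ratios of means are given too. Whether replicates were separate animals is not in the labels, and the tests therefore rest on variation among libraries alone.

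Tunicamycin in WT cells raised 1 of the 8 genes, the caspase-8 inhibitor Cflar, lowered the receptors Tnfrsf10b and Tnfrsf1a and the caspase Casp8, and left 4 without a call. The 4 called compare with 33.6% of all tested genes called in either direction, 17.7% higher and 15.9% lower. Groups were fully separated for 5 of the 8, beside 46.7% of all tested genes. CKO Tu cells had 6 of 8 called against WT Tu: Fas and Map3k5 higher, and Tnfrsf10b, Fadd, Casp8 and Cflar lower. There the background was 38.3% of tested genes called, 18.7% higher and 19.6% lower. Libraries of the compared groups were fully separated for 6 of the 8 and for 51.2% of tested genes. Against WT DMSO, which differs from CKO Tu in both treatment and genotype, 8 of 8 were called, 4 in each direction, beside 49.5% of tested genes (25.3% higher, 24.2% lower), and none of the 8 overlapped, beside 63% of tested genes. WT Tu is shared by the first 2 comparisons and WT DMSO by the first and the third, so their values are not independent. Calls that also reached 1 or more in log2 size were made for 0 of the 8 in the first comparison (3.17% of tested genes) and for Fas alone in the second (3.69%) and the third (7.23%).

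**Figure D1:**
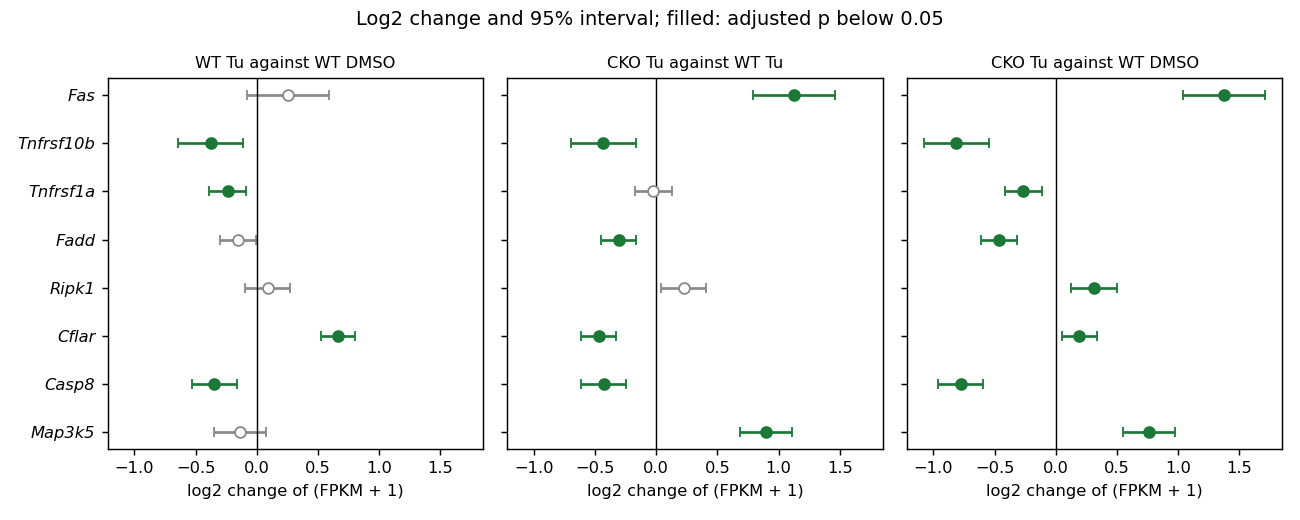
Log2 change of FPKM + 1 (horizontal axis) for the 8 genes (rows) in the 3 comparisons (panels), with 95% intervals from limma; filled points have an adjusted p below 0.05. Cflar lies right of 0 in the left panel and left of 0 in the middle one, and Fas and Map3k5 lie furthest right in the middle panel.

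Fas, the receptor for Fas ligand, had the lowest mean level of the 8 genes in both WT groups. It was at 2.58, 2.80 and 1.83 FPKM in the vehicle group, at 2.97, 2.43 and 3.80 after tunicamycin in WT cells and at 8.72, 7.31 and 7.36 in knockout cells, from 52 to 246 fragments per library. All 3 CKO Tu libraries were above all 6 WT libraries, while the WT groups overlapped. CKO Tu was higher than WT Tu by 1.12 ± 0.15 (SE; limma adjusted p = 0.00053), a ratio of means of 2.54, and 96.9% of tested genes differed by less. Against WT DMSO the ratio of means was 3.25 (1.38 ± 0.15; limma adjusted p = 8.2e-05). WT Tu differed from WT DMSO by 0.26 ± 0.15 (SE; limma adjusted p = 0.22), with a 95% interval of -0.08 to 0.59 that holds both no change and a rise.

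Tnfrsf10b, the mouse TRAIL death receptor, was at 6.08, 4.61 and 4.75 FPKM in the vehicle group, at 4.22, 3.05 and 3.93 after tunicamycin in WT cells and at 2.39, 2.54 and 2.52 in knockout cells. Each group lay wholly below the one before it, and CKO Tu had the narrowest spread (SD 0.0825, n = 3). It fell with tunicamycin in WT cells by 0.38 on the log2 scale (-0.38 ± 0.12, SE; limma adjusted p = 0.036), in the same libraries in which Ddit3, the gene for CHOP, rose by 3.38 ± 0.15 (SE; limma adjusted p = 9.4e-07). That call was lost without any 1 of WT DMSO replicates 1 and 3, WT Tu replicates 2 and 3 and the 3 CKO Tu libraries, with limma adjusted p of 0.052 to 0.11, with no filter on low values (0.094) and when only these groups were fitted (0.078). CKO Tu was lower than WT Tu by -0.43 ± 0.12 (SE; limma adjusted p = 0.018), lost without WT Tu replicate 3 or CKO Tu replicate 1 (limma adjusted p = 0.055 and 0.059) and with no filter on low values (0.0504). Ddit3 was also lower in CKO Tu than in WT Tu (-0.56 ± 0.15, SE; limma adjusted p = 0.017). Between CKO Tu and WT DMSO the ratio of means of Tnfrsf10b was 0.483 (-0.81 ± 0.12; limma adjusted p = 0.00047), while Ddit3 was higher (2.83 ± 0.15; limma adjusted p = 1.2e-06). A link between Ddit3 and Tnfrsf10b was not tested. Fas and Tnfrsf10b thus differed in opposite directions between CKO Tu and WT Tu. The Fas level was 0.424, 0.607 and 0.385 of the Tnfrsf10b level in the WT DMSO libraries, 0.703, 0.797 and 0.967 with tunicamycin, and 3.65, 2.87 and 2.93 in CKO Tu. In FPKM, Tnfrsf10b was above Fas in all 6 WT libraries and below it in all 3 CKO Tu libraries (exact two-sided permutation p = 0.1 for each pair of groups, the smallest that 3 against 3 can give). Which of them stood higher in CKO Tu rests on the gene lengths used, 1801 bases for Fas and 5451 for Tnfrsf10b. In fragments, the CKO Tu libraries had 246, 204 and 202 for Fas and 204, 215 and 209 for Tnfrsf10b.

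Tnfrsf1a, TNF receptor 1, was the most abundant of the 3 receptors in every library. It was at 29.7, 27.5 and 30.6 FPKM in the vehicle group, at 24.98, 24.2 and 24.6 after tunicamycin in WT cells and at 22.4, 23.9 and 26.3 in knockout cells. Both tunicamycin groups lay below WT DMSO and overlapped each other. It fell with tunicamycin by 0.24 on the log2 scale (-0.24 ± 0.07, SE; limma adjusted p = 0.024), a ratio of means of 0.842. Omitting replicate 1 or 3 of WT DMSO, or 2 or 3 of WT Tu, ended that call (limma adjusted p = 0.066, 0.088, 0.063 and 0.055). Any of those 4 omissions also cost Tnfrsf10b its call, which left 2 of the 8 genes called, Cflar and Casp8, in place of 4. With these omissions all genes called went from 3981 to between 2973 and 3679. For Tnfrsf1a, CKO Tu and WT Tu differed by -0.03 ± 0.07 (SE; limma adjusted p = 0.8), with a 95% interval of -0.18 to 0.13.

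**Figure D2:**
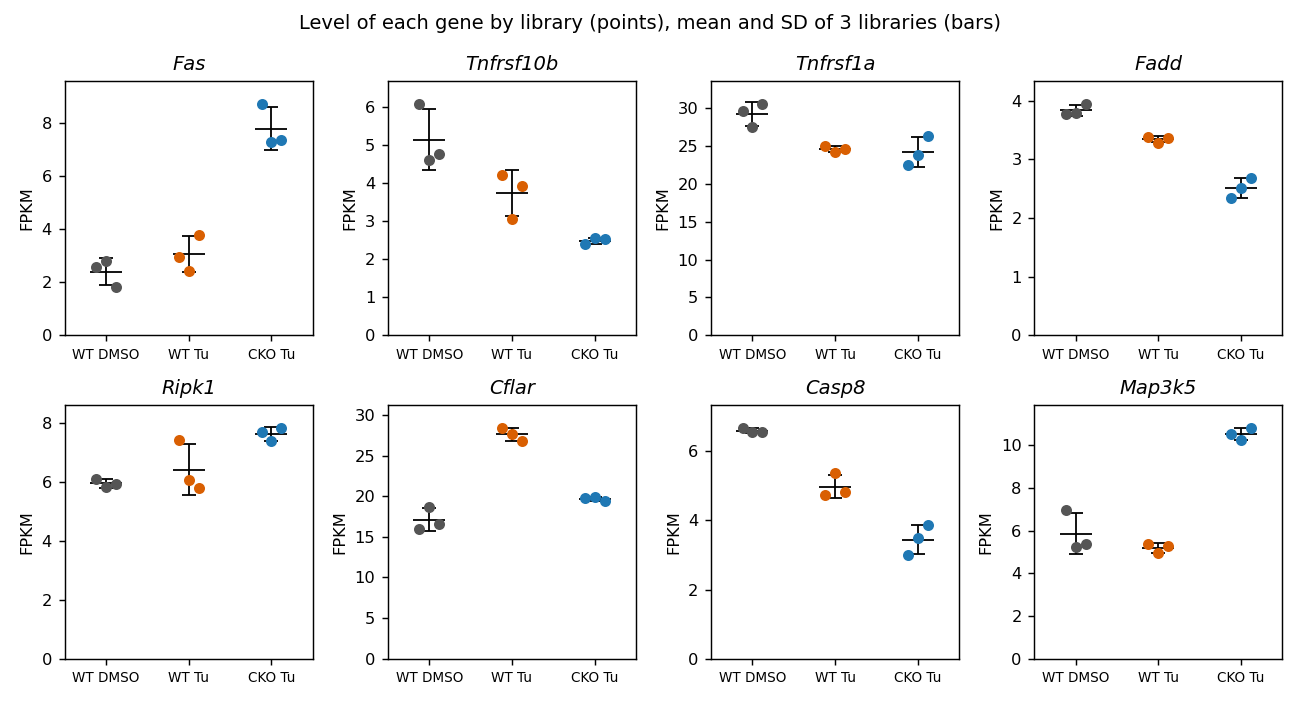
Level of each gene in FPKM (vertical axis, from 0) in each library of the 3 groups (points), with the mean and SD of 3 libraries (bars). CKO Tu stands above both WT groups for Fas and Map3k5, WT Tu above both others for Cflar, and the groups step down from WT DMSO to CKO Tu for Tnfrsf10b, Fadd and Casp8.

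Fadd, the adaptor that links Fas and the TRAIL receptor to caspase-8, was at 3.78, 3.79 and 3.94 FPKM in the vehicle group, at 3.38, 3.29 and 3.37 after tunicamycin in WT cells and at 2.34, 2.51 and 2.69 in knockout cells. The 3 groups did not overlap. WT Tu against WT DMSO gave -0.15 ± 0.06 (SE; limma adjusted p = 0.096), not a call, though it passed with upper-quartile scaling (adjusted p = 0.045) and with scaling to total fragments (0.012). CKO Tu was lower than WT Tu by -0.31 ± 0.06 (SE; limma adjusted p = 0.0056), a ratio of means of 0.751. An antisense gene, Faddos, overlaps the locus and had 12 fragments in all 9 libraries together. Ripk1, the kinase that TNF receptor 1 recruits, was at 6.10, 5.83 and 5.94 FPKM in the vehicle group, at 7.43, 6.06 and 5.80 after tunicamycin in WT cells and at 7.69, 7.38 and 7.85 in knockout cells. WT Tu replicate 1 was high and overlapped CKO Tu, while the other WT Tu libraries were near WT DMSO. CKO Tu against WT Tu gave 0.22 ± 0.08 (SE; limma adjusted p = 0.059), which passed without WT Tu replicate 1 (adjusted p = 0.0027), with total-fragment scaling (0.021), with voom (0.032) and with a weight per library (0.0027). Against WT DMSO it was higher by 0.31 ± 0.08 (SE; limma adjusted p = 0.012). The first bases of Ripk1 overlap the 5′ end of Serpinb6a on the other strand, and the strand setting of the counting was not given, so reads there cannot be assigned to either.

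Casp8, the initiator caspase of the pathway, was at 6.68, 6.56 and 6.55 FPKM in the vehicle group, at 4.74, 5.36 and 4.82 after tunicamycin in WT cells and at 3.001, 3.48 and 3.86 in knockout cells. The 3 groups did not overlap, and WT DMSO was tight (SD 0.0715, n = 3). It fell with tunicamycin by 0.35 on the log2 scale (-0.35 ± 0.08, SE; limma adjusted p = 0.01), a ratio of means of 0.754. CKO Tu was lower again than WT Tu, by -0.43 ± 0.08 (SE; limma adjusted p = 0.0034), with a ratio of means of 0.693, and stood at 0.522 of WT DMSO (limma adjusted p = 6.6e-05). These 3 calls held under all 20 alternatives run.

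Cflar, the inhibitor encoded next to Casp8, moved otherwise. It was at 15.99, 18.7 and 16.6 FPKM in the vehicle group, at 28.4, 27.6 and 26.8 after tunicamycin in WT cells and at 19.7, 19.9 and 19.4 in knockout cells. The 3 WT Tu libraries were the highest, and CKO Tu lay just above WT DMSO. With tunicamycin it rose in WT cells by 0.66 ± 0.06 (SE; limma adjusted p = 8.3e-05), a ratio of means of 1.62, and 90.6% of tested genes differed by less. CKO Tu was lower than WT Tu by -0.47 ± 0.06 (SE; limma adjusted p = 0.00057), a ratio of means of 0.712. Against WT DMSO it was higher by 0.19 ± 0.06 (SE; limma adjusted p = 0.029), a call that was lost without WT DMSO replicate 1 or 3 or any 1 of the CKO Tu libraries (limma adjusted p from 0.061 to 0.094) and with 3 other scalings (0.11 to 0.15).

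The level of Cflar over that of Casp8 was 2.39, 2.85 and 2.54 in the WT DMSO libraries, 6.00, 5.16 and 5.56 with tunicamycin, and 6.57, 5.71 and 5.03 in CKO Tu. The ratio was about as high in both tunicamycin groups, whose libraries overlapped (5.57 ± 0.42 and 5.77 ± 0.769, SD, n = 3; exact two-sided permutation p = 0.8), although both genes were lower in CKO Tu than in WT Tu. WT DMSO, at 2.59 ± 0.234 (SD, n = 3), was below both, with an exact two-sided permutation p = 0.1, the smallest possible. In all, 4 such ratios were tested in 12 comparisons, and each exact permutation p of 0.1 became 0.12 after Benjamini-Hochberg adjustment over them. Tnfrsf1a over Fas was 12.7 ± 3.59 in WT DMSO, 8.29 ± 1.75 in WT Tu and 3.14 ± 0.513 in CKO Tu (SD, n = 3), and its WT groups overlapped (exact two-sided permutation p = 0.2, adjusted 0.218). Ripk1 over Fadd was 1.55 ± 0.0571 in WT DMSO, 1.92 ± 0.246 in WT Tu and 3.05 ± 0.208 in CKO Tu (SD, n = 3), with no overlap between groups. A ratio within a library does not depend on how libraries were scaled. Cflar has 12669 bases of gene length against 2893 for Casp8, so the size of the ratio depends on these lengths, which cancel in its change. Which fragments were counted still depends on the gene models, and isoforms were not separated.

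**Figure D3:**
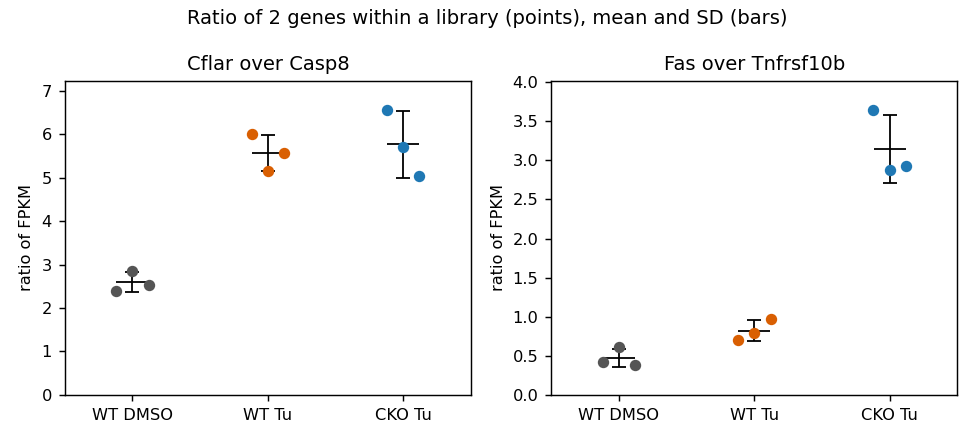
Ratio of the FPKM of Cflar to Casp8 (left) and of Fas to Tnfrsf10b (right) within each library (points; vertical axes from 0), with the mean and SD of 3 libraries (bars). Cflar over Casp8 is higher in both tunicamycin groups than in WT DMSO, and Fas over Tnfrsf10b is above 1 in the CKO Tu libraries alone. The position relative to 1 depends on the gene lengths used for FPKM.

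Map3k5, which encodes ASK1, was at 6.99, 5.24 and 5.36 FPKM in the vehicle group, at 5.37, 4.94 and 5.31 after tunicamycin in WT cells and at 10.5, 10.3 and 10.8 in knockout cells. WT DMSO replicate 1 was the highest WT library, and all 3 CKO Tu libraries were well above it. CKO Tu was higher than WT Tu by 0.90 ± 0.09 (SE; limma adjusted p = 0.00017), a ratio of means of 2.03, and 94.7% of tested genes differed by less. Against WT DMSO the ratio of means was 1.80 (0.76 ± 0.09; limma adjusted p = 0.00019). WT Tu against WT DMSO gave -0.14 ± 0.09 (SE; limma adjusted p = 0.29), with a 95% interval of -0.35 to 0.08.

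Ordered by mean level, WT DMSO ran from Tnfrsf1a (29.2 ± 1.58 FPKM, SD, n = 3) and Cflar (17.1 ± 1.43) through Casp8, Ripk1, Map3k5 and Tnfrsf10b to Fadd and Fas (2.40 ± 0.507). Ripk1 and Map3k5, and Map3k5 and Tnfrsf10b, overlapped there. In WT Tu Cflar (27.6 ± 0.794 FPKM) passed Tnfrsf1a (24.6 ± 0.365) with no overlap, and the last 3, Tnfrsf10b, Fadd and Fas, overlapped their neighbours. In CKO Tu Tnfrsf1a led again (24.2 ± 1.95), and after Cflar came Map3k5 (10.5 ± 0.276) and then Fas (7.80 ± 0.802), the latter overlapping Ripk1 (7.64 ± 0.236). Tnfrsf10b and Fadd were last and overlapped, at 2.48 ± 0.0825 and 2.51 ± 0.175 FPKM (SD, n = 3). These orders rest on the gene lengths used, and the overlaps describe the spread between libraries only.

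Most death ligands were near the limit of detection in these cultures. Of 8 ligand genes, 1 passed the filter. That was Tnfsf12, which encodes TWEAK, and it fell with tunicamycin from 1.37 to 0.671 FPKM (-0.50 ± 0.16, SE; limma adjusted p = 0.041). Tnf had 3 fragments over the WT DMSO group and 0 in each tunicamycin group, which allows up to 0.0409 FPKM in WT Tu and 0.0394 in CKO Tu, from 3 fragments over the group. Fasl, the ligand of Fas, had 2, 14 and 15 fragments in WT DMSO, WT Tu and CKO Tu, and Tnfsf10, which encodes TRAIL, had 31, 21 and 16. Such bounds cover counting error only.

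Other receptors of the family were better expressed. Of 13, 8 passed the filter, and 2 rose, 0 fell and 6 did not pass the test with tunicamycin. Tnfrsf23, a decoy TRAIL receptor without a death domain, rose from 12.9 to 20.2 FPKM (0.62 ± 0.09, SE; limma adjusted p = 0.00087), and Tnfrsf1b, TNF receptor 2, by 0.34 ± 0.06 (SE; limma adjusted p = 0.0023). Between CKO Tu and WT Tu, 1 was higher, 2 lower and 5 not called. The 2 lower were the decoys Tnfrsf23 (-1.47 ± 0.09; limma adjusted p = 7.3e-06) and Tnfrsf22 (-1.16 ± 0.09; limma adjusted p = 2.8e-05), which went from 8.17 to 3.08 FPKM, and the higher was Tnfrsf25, death receptor 3 (0.47 ± 0.12; limma adjusted p = 0.015). Tnfrsf22 and Tnfrsf23 are close relatives, and how the counting treated shared reads was not given.

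Among receptor-proximal adaptors and ubiquitin regulators, 25 of 27 passed the filter. With tunicamycin 7 rose, 4 fell and 14 were not called, among them Otulin, a deubiquitinase of linear chains (0.67 ± 0.07), Birc2, the ubiquitin ligase cIAP1 (0.42 ± 0.09), and Rbck1, a subunit of the linear chain ligase (-0.41 ± 0.09). In CKO Tu against WT Tu 6 were higher and 6 lower. Tnfaip3, the NF-kB feedback protein A20, was at 3.16 against 6.73 FPKM (-0.90 ± 0.15; limma adjusted p = 0.0021), and Traf3 (-0.63 ± 0.07) and Birc3 (-0.59 ± 0.10) were lower, while Otulin was higher by 0.51 ± 0.07 (SE). Of 10 IKK and TAK1 kinase genes, 3 rose and 0 fell with tunicamycin, with Chuk, which encodes IKK alpha, at 0.43 ± 0.07. In CKO Tu 2 were higher and 1 lower than in WT Tu. The larger difference was in Ikbkg (0.54 ± 0.07), an X-linked gene. There, as for every gene compared between CKO Tu and a WT group, genotype and the sex-linked difference cannot be told apart.

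In necroptosis, the lytic death that RIPK1 can start, Mlkl, the pore-forming effector, was at 31.3, 23.1 and 15.7 FPKM in WT DMSO, WT Tu and CKO Tu. It fell with tunicamycin (-0.42 ± 0.05; limma adjusted p = 0.00041) and was lower again in CKO Tu than in WT Tu (-0.53 ± 0.05; limma adjusted p = 0.00013). Ripk3, the kinase that activates MLKL, had 6, 13 and 1 fragments over the 3 groups, below the filter.

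Among other caspases, the initiator Casp9 fell with tunicamycin (-0.37 ± 0.07, SE; limma adjusted p = 0.004). Casp6 was at 1.75 FPKM in WT Tu and 2.86 in CKO Tu, higher in the latter (0.49 ± 0.08, SE; limma adjusted p = 0.0019). Casp12, an ER-associated caspase of rodents, had 7 fragments in WT DMSO and 0 in both tunicamycin groups, at most 0.0175 and 0.0168 FPKM for 3 fragments. Of 11 genes of caspase activation and their substrates, 1 rose (Parp1), 1 fell (Htra2) and 9 were not called with tunicamycin. In CKO Tu 1 was lower than in WT Tu and 10 were not called. The 1 was Bid, the BH3 protein that caspase-8 cuts to reach mitochondria, at 16.3 FPKM in WT Tu and 10.2 in CKO Tu (-0.63 ± 0.06; limma adjusted p = 0.00013).

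Along the ASK1 route, 10 of 15 genes of the JNK and p38 cascade passed the filter, with 2 higher, 3 lower and 5 not called after tunicamycin. In CKO Tu against WT Tu 1 was higher and 2 lower. Mapk8, which encodes JNK1, rose with tunicamycin (0.27 ± 0.07) and was higher again in CKO Tu (0.32 ± 0.07; limma adjusted p = 0.0094). Map2k3, a p38 activating kinase, fell with tunicamycin (-0.22 ± 0.04) and was lower again in CKO Tu (-0.61 ± 0.04; limma adjusted p = 2.2e-05), and Mapk13, p38 delta, went from 2.28 FPKM in WT Tu to 0.254 in CKO Tu (limma adjusted p = 1.4e-05). Of 15 ASK1 regulators, 3 rose and 3 fell with tunicamycin, and 4 were higher and 4 lower in CKO Tu than in WT Tu. Txnip, the inhibitor of thioredoxin, was at 78.8 FPKM in WT Tu and 179 in CKO Tu (1.19 ± 0.19; limma adjusted p = 0.0016). Txn2, the mitochondrial thioredoxin that binds ASK1, was at 100.2 and 68.6 FPKM (-0.53 ± 0.07; limma adjusted p = 0.00071), and Dusp1, a phosphatase of JNK and p38, at 167 and 75.6 FPKM (-1.13 ± 0.12; limma adjusted p = 0.00019). Inhibitors of the route were also among those higher in CKO Tu: Gstp1, a glutathione transferase that binds JNK (0.61 ± 0.07; limma adjusted p = 0.00019), and the phosphatases Dusp10 (0.51 ± 0.08; limma adjusted p = 0.0011) and Dusp16 (0.35 ± 0.06; limma adjusted p = 0.0015). Genes that restrain ASK1, JNK or p38 thus lay on both sides.

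**Figure D4:**
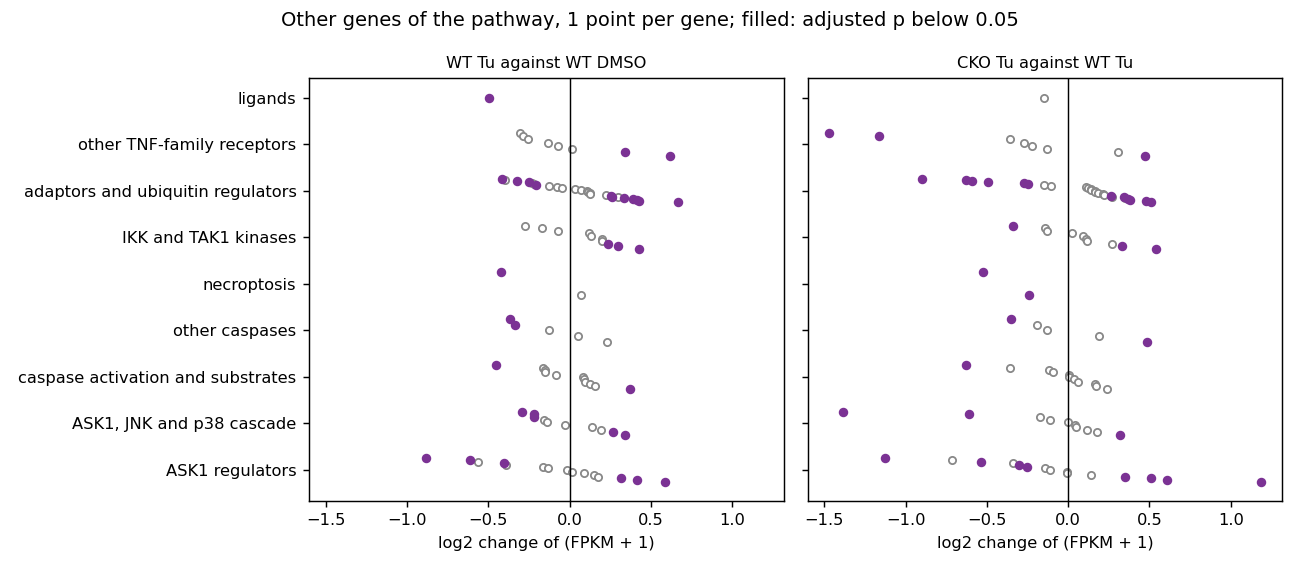
Log2 change of FPKM + 1 (horizontal axis) for the other pathway genes that passed the filter, 1 point per gene, by list (rows), for WT Tu against WT DMSO (left) and CKO Tu against WT Tu (right); filled points have an adjusted p below 0.05. In the left panel 4 of the 9 lists hold called genes on both sides of 0, and the points furthest from 0 lie in the right panel.

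Over all lists, 87 of 112 pathway genes passed the filter. With tunicamycin in WT cells 18 rose, 15 fell and 54 were not called, with a median change of 0.02 against -0.002 over all tested genes. CKO Tu against WT Tu gave 15 higher, 19 lower and 53 not called (median 0.01 against -0.002), and CKO Tu against WT DMSO 27 higher, 27 lower and 33 not called (median 0.02 against 0.001). The called genes were 37.9%, 39.1% and 62.1% of the 87 in the 3 comparisons, beside 33.6%, 38.3% and 49.5% of all tested genes, so the first 2 shares were near the background. The 33 called with tunicamycin became 21 without WT DMSO replicate 3, where all genes called went from 3981 to 2973. The 34 called between CKO Tu and WT Tu became 53 when each library was given its own weight. All genes called in that setting went from 4538 to 5546.

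Markers of other cell types were measured beside these genes, because Fas, Tnfrsf1a and Casp8 are also expressed outside hepatocytes. In bulk RNA, fewer cells of a type and less RNA per cell cannot be told apart. Summed over 10 endothelial markers, levels were 11.9 to 12.6 FPKM in WT DMSO, 5.16 to 6.14 in WT Tu and 3.69 to 4.52 in CKO Tu, and 4 of the 10 passed the filter. All 4 fell with tunicamycin, from -0.52 (Pecam1) to -1.21 (Eng), in the comparison in which Tnfrsf10b and Casp8 fell. Between CKO Tu and WT Tu only Pecam1 was called (-0.46 ± 0.10; limma adjusted p = 0.0085), while Cdh5, Stab1 and Eng gave -0.09, -0.08 and -0.06 (limma adjusted p = 0.67, 0.56 and 0.70). The 6 cholangiocyte markers summed to 22.7 to 25.9, 22.8 to 24.3 and 34.3 to 38.3 FPKM, highest in CKO Tu as for Fas and Map3k5, with 2 of the 6 past the filter. Of these, Spp1 was higher in CKO Tu than in WT Tu (0.68 ± 0.08; limma adjusted p = 0.00042) and WT DMSO (0.79 ± 0.08; limma adjusted p = 8.3e-05). Sox9 was higher than in WT Tu (0.51 ± 0.17; limma adjusted p = 0.039) but was not called against WT DMSO (0.09 ± 0.17; limma adjusted p = 0.68). The 10 macrophage markers summed to 75.3 to 93.0, 96.9 to 115 and 92.7 to 107 FPKM, of which Cd68 made up most. Cd68 rose with tunicamycin (0.37 ± 0.10; limma adjusted p = 0.02), and Lyz2, the other marker past the filter, fell (-1.11 ± 0.15; limma adjusted p = 0.00073). Adgre1, Clec4f, Marco, Vsig4, Timd4 and Cd5l were at 0 fragments in CKO Tu. Marco, Vsig4 and Cd5l were also at 0 in WT Tu, and Vsig4 in WT DMSO. The 8 stellate markers summed to 0.297 to 0.572, 0.39 to 0.597 and 1.79 to 2.24 FPKM. Only 1 of them, Reln, passed the filter, and it was higher in CKO Tu than in WT Tu (1.37 ± 0.12; limma adjusted p = 5.4e-05). Col1a1 was at 0 fragments in CKO Tu, and Lrat in WT DMSO. The 8 lymphocyte and neutrophil markers summed to at most 1.05 FPKM in any library. The part of these cells in the levels of the 8 genes was not tested.

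Across the 9 libraries Fadd and Casp8 had the most alike pattern of any pair among the 8 (Pearson r = 0.98 on log2(FPKM + 1)), and Fas ran opposite to both (r = -0.95 and -0.93). Cflar was least like the rest, with r from -0.62 (Tnfrsf1a) to 0.05 (Ripk1). Among tested genes with a mean of at least 5 FPKM over the 9 libraries, predicted genes and pseudogenes left out, the genes most like Casp8 were Svil and Clta (r = 0.995 and 0.992), those most like Fadd were Sprr1a and Armc6 (0.995 and 0.993), and those most like Map3k5 were Rit1 and Rap2a (0.994 and 0.989). Fas was most like Cyp27a1 and Mfsd14a (0.987 and 0.984), Cflar like Zfyve16 and Ncl (0.987 and 0.984), and Ripk1 like Cand1 and Xiap (0.983 and 0.982). Tnfrsf10b was most like Acvr1 and Abcd3 (0.981 and 0.978), and Tnfrsf1a like Ccdc25 and Dnajc16 (0.967 and 0.943). The libraries form 3 groups, so these values mainly describe similar steps between group means, and many genes share them.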

How the data were processed

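RNA from 9 libraries of primary mouse hepatocytes was read from 1 deposited table of FPKM per gene, which the authors made. Per the submitters' processing notes, HISAT2 2.2.1, featureCounts 1.5.0-p3 and the mm10 build were used. The sources used here do not give the annotation release, strand setting or FPKM formula.

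Multiplied by gene length, 100% of FPKM values above 0 were whole multiples of a single step in their library (within 0.001 fragments). This gave fragments for each gene and the library size used (0.948 to 1.07 times the recovered total). Precision at low levels is limited by these fragments, and bounds for genes at 0 cover counting error only. The 95% intervals come from limma and rest on the spread between libraries.

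Values were taken as log2(FPKM + 1). The model was limma (version 3.58.1, R version 4.3.3) over genes reaching 1 FPKM in 3 or more libraries. It held the 9 libraries with 1 mean per group and an intensity trend, without a replicate block. Tests were two-sided with Benjamini-Hochberg adjustment over the 11858 genes in each of 3 comparisons. The steps were tested on simulated data.

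The 8 genes and the gene lists were chosen with earlier results of these data known. Pathway genes named besides the 8 were drawn, in each comparison, from the up to 4 called genes per pathway list with the largest change. Not all of these were named, and Glrx, Mapk8ip3 and Map3k6 were among those left out. Dusp10 and Dusp16 were named through comparisons other than CKO Tu against WT Tu, and their values in that comparison were given too. For each of the 8, the 2 most correlated genes with a mean FPKM of at least 5 were also named. Genes below the filter were named once their values were known. Certain genes of the caspase list are not reported here. Alternatives were a pseudocount of 0.1, no filter, a filter at FPKM of 5, upper-quartile, quantile and total-fragment scaling, voom on recovered fragments, a blocked fit by replicate number, a fit without the group not compared, no trend, a weight per library, and each library left out in turn. Promoter letters came from RefSeq (GRCm38.p6).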

Additional observations from a re-analysis of the deposited data

How the results depend on the processing

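Of 474 values for the 8 genes under the alternatives, 444 kept their side of the threshold, 24 lost a call, 6 gained one and 0 reversed a called direction. Tnfrsf10b and Fadd were not tested with the filter at FPKM of 5. Leaving out 1 library at a time gave 2 to 4 of the 8 genes called for WT Tu against WT DMSO. Pathway genes called then numbered 21 to 36, beside 2973 to 3815 of all genes (3981 with every library). A weight per library gave 53 pathway genes called between CKO Tu and WT Tu, beside 5546 of all genes. The replicate number as a block called 4, 6 and 8 of the 8 genes, 33, 34 and 53 pathway genes, and 3696, 4248 and 5683 of all genes in the 3 comparisons, and changed no call among the 8. Libraries with the same number did not deviate together (correlations of -0.0967 to 0.0208 over 9 pairs, 2 of them the best match), so no pairing by number was seen. With 3 libraries per group, such values cannot exclude a pairing. With total-fragment scaling, WT Tu against WT DMSO had a median change of -0.108 over tested genes and 31.5% of calls higher, and upper-quartile scaling gave 42.3%, beside 52.7% as deposited. The values of Ripk1 in that comparison and of Tnfrsf1a between CKO Tu and WT Tu, neither called, changed sign in 2 alternatives each. The voom fit, which adds no FPKM, put Fas at 1.37 and Map3k5 at 1.02 between CKO Tu and WT Tu. Total-fragment scaling multiplies each value by the library size used over the recovered total. That quotient was 1.057 to 1.070 in WT DMSO, 0.948 to 0.984 in WT Tu and 1.005 to 1.010 in CKO Tu. Why it differed between the groups was not tested, and neither was the cause of the other shifts. Depth limits Fas most, with 52 fragments in its lowest library.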
